A study of Mus musculus with 8 samples.

Results

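The 10 genes described here encode regulators of the integrated stress response: the transcription factors Atf4, Atf5, Ddit3 (CHOP), Atf3 and Nupr1, the pseudokinase Trib3, Sesn2 and Ddit4, inhibitors of the growth-promoting kinase complex mTORC1, the translation repressor Eif4ebp1, and the phosphatase subunit Ppp1r15a (GADD34). They were followed in Cebpg-/- mouse embryonic fibroblasts, which lack C/EBPγ, and in wild-type (WT) fibroblasts. The members are all probe sets that the platform's annotation assigns to 1 of these genes alone. These are 18 probe sets for 10 genes, of 45037 probe sets for 18193 genes in all.

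The study compared 4 Cebpg-/- with 4 WT samples, each hybridised to 1 Affymetrix array. Both groups were C57BL/6 fibroblasts taken from E13.5 embryos, grown with 10% fetal bovine serum and harvested at passage 3, 48 hours after plating. No stressor was named for either group, so the levels are those of cells under ordinary culture. The samples are called biological replicates, without word on separate or pooled embryos, and p-values therefore measure the spread between these samples.

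In the integrated stress response, kinases that sense lack of amino acids, unfolded protein, lack of haem or double-stranded RNA phosphorylate the initiation factor eIF2. Most protein synthesis then drops, while upstream reading frames in the Atf4, Atf5 and Ddit3 mRNAs allow their coding sequences to be translated more. ATF4 binds DNA as a dimer with other basic leucine zipper proteins, among them C/EBPγ, at composite C/EBP-ATF elements, and switches on genes of amino acid supply together with further regulators. Arrays read mRNA alone, so the protein of these translationally controlled genes was not measured.

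The composite element has the core TGATGNAA, and it was searched on both strands in the RefSeq promoter windows (GRCm38.p6, 250 bases before to 50 after a gene's start). Of the 10 genes 9 had a window, and 3 of these 9 held the core: Trib3, Nupr1 and Atf3. Among all genes with a window 4.51% held it. The stretches are shown because they carry the sequence at which a C/EBP-ATF dimer can bind. They are written 5′ to 3′ on the gene's strand with the core, here in its reverse orientation, in capitals.
Trib3, chr2:152344039-152344076, minus strand: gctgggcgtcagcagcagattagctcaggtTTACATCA
Nupr1, chr7:126625543-126625610, minus strand: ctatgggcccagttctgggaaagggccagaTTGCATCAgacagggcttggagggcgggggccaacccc
Atf3, chr1:191183406-191183473, minus strand: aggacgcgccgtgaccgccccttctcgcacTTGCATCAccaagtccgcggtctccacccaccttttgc
Counted from the start, the core ran from -110 to -103 in both Nupr1 and Atf3, and from 15 to 22 in Trib3. With the stricter core TGATGCAA, 2 of the 9 genes (Nupr1 and Atf3) and 1.03% of all genes with a window had a match. The windows of Atf4, Atf5, Ddit3, Sesn2, Ddit4 and Ppp1r15a held no match, which says nothing of elements outside them.

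Each value is an RMA summary in log2 units, where a difference of 1 is 2-fold, and the number of arrays limits their precision. Array medians lay between 2.705 and 2.719 in Cebpg-/- and between 2.716 and 2.757 in WT. Of 3 Cebpg probe sets, 1 fell, with 5.53 ± 0.12 in Cebpg-/- and 6.32 ± 0.07 in WT (SD, n = 4; limma, adjusted p = 0.000593 over all probe sets). The other 2 did not pass, at 6.60 and 3.05 in Cebpg-/- and 6.78 and 2.797 in WT. Which probe sets lie in the deleted part is not stated in the sources used here. The 10 fibroblast markers averaged 9.40 and 9.69 in Cebpg-/- and WT, and 4 of them fell and none rose: Col1a1 (-1.05), Col3a1 (-0.97), Pdgfrb (-0.64) and Col1a2 (-0.44). Their part in the results was not tested. The 5 endothelial markers averaged 2.37 and 2.33 in Cebpg-/- and WT, and none of them was called. The called genes among neural, epithelial and muscle markers were Tubb3 (-1.13), Sox2 (1.10), Epcam (-0.34) and Actc1 (-0.35). Sox2 was dim, at 2.91 in Cebpg-/- and 1.80 in WT. The 18 leukocyte markers had array means of 7.28, 4.78, 6.60 and 6.24 on Cebpg-/- replicates 1 to 4, against 3.60, 5.28, 5.22 and 5.36 on WT replicates 1 to 4. The mean was higher in Cebpg-/- for 17 of these 18 markers, and 1 of them (Cd14) passed the test. In bulk RNA, more or fewer cells of a type and more or less RNA per cell cannot be told apart.

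Cebpg-/- fibroblasts had less mRNA of Trib3, Atf5, Nupr1, Ddit3 and Eif4ebp1 than WT fibroblasts and more of Atf3, Ppp1r15a and Ddit4. Trib3 fell to 32.2% and Atf5 to 42.2% of WT, while the other falls left 66.3% to 82.2% of WT and the rises reached 126% to 174%. Atf4 and Sesn2 did not pass the test. Thus 5 of the 10 genes were lower, where 3.99% of all genes were, and 3 were higher, where 8.62% of all genes were (limma with Benjamini-Hochberg adjustment over 18193 genes, threshold 0.05, each gene represented by its brightest probe set). The median change of the 10 was -0.20 and the median size of change 0.42, against -0.00092 and 0.11 over all genes. In 8 of the 10 genes the Cebpg-/- and WT values did not overlap, against 19.5% of all genes. In 3 of them all Cebpg-/- values lay above all WT values (12.8% of all genes) and in 5 below (6.74%). Calls in either direction covered 8 of the 10 genes and 12.6% of all genes. The 10 genes were chosen with earlier results of these data known, so these counts and medians are no independent evidence.

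**Figure D1:**
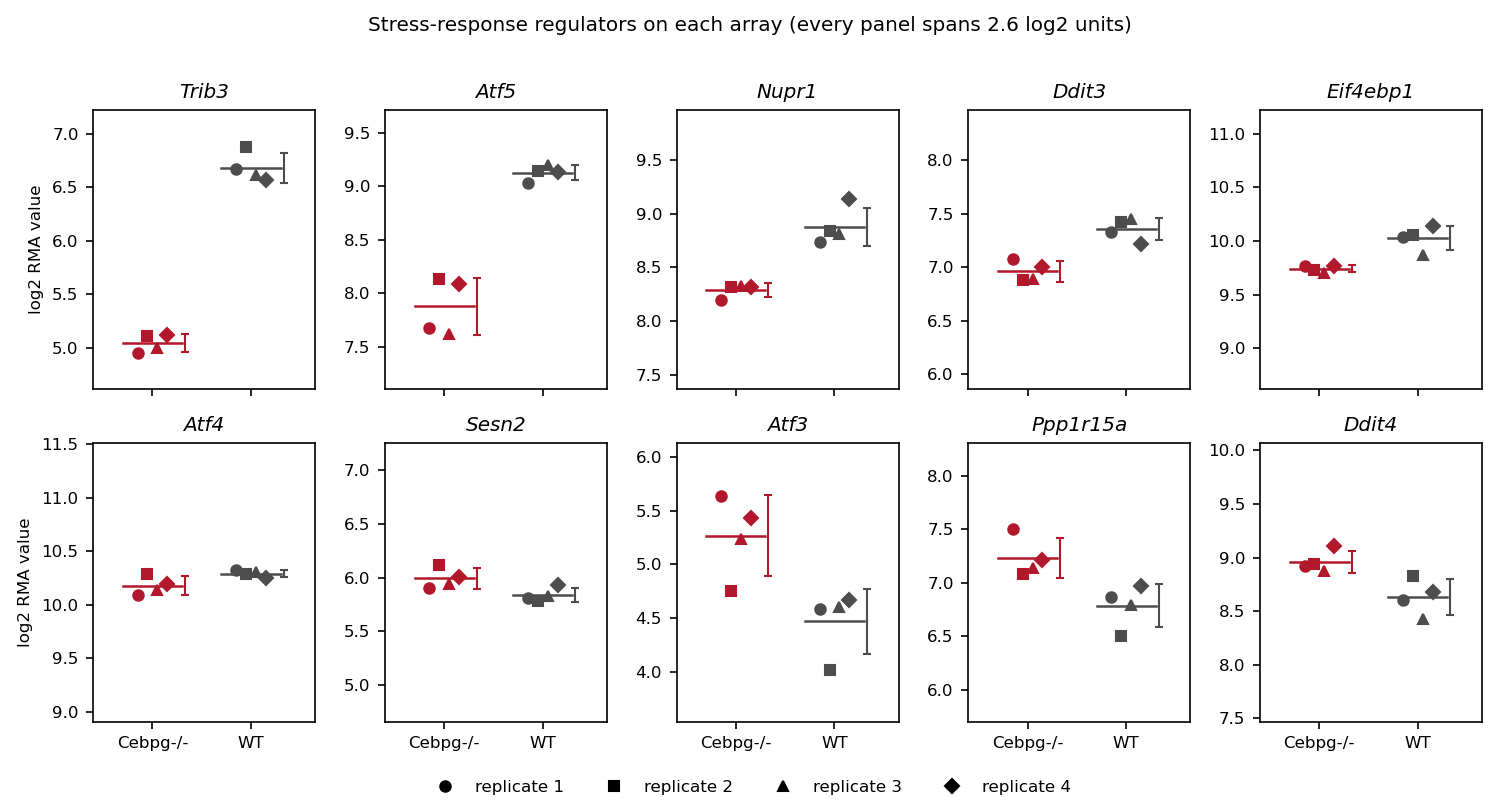
Log2 RMA value of each regulator (brightest probe set) on each array, Cebpg-/- in red and WT in grey. Marker shapes give the replicate number, horizontal lines the means and bars the SD (n = 4), and every panel spans the same range. The groups lie far apart for Trib3 and Atf5, close together for Atf3, Ppp1r15a, Ddit4, Ddit3 and Eif4ebp1, and overlap for Atf4 and Sesn2.

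Atf4, the factor at the head of the response, showed no difference in mRNA that passed the test. Its brightest probe set (1448135_at) read 10.09, 10.29, 10.14 and 10.20 on Cebpg-/- replicates 1 to 4, against 10.33, 10.28, 10.31 and 10.25 on WT replicates 1 to 4. One Cebpg-/- array lay among the WT arrays. The means were 10.18 ± 0.09 in Cebpg-/- and 10.29 ± 0.03 in WT (SD, n = 4), a change of -0.11 with a 95% interval of -0.25 to 0.02 (limma, adjusted p = 0.246). The other 2 probe sets also had lower means in Cebpg-/-, by 0.16 and 0.18, and did not pass (adjusted p = 0.198 and 0.196 over all probe sets). The dimmer of these 2, at 1.70 in Cebpg-/- and 1.88 in WT, lies below the median probe set. By the interval of the brightest probe set, Atf4 mRNA in Cebpg-/- lay between 84.2% and 101% of its WT level. With the leukocyte marker mean added to the fit as a covariate, its change was -0.03 (adjusted p = 0.882), and without the arrays of both marker extremes it was -0.07 (adjusted p = 0.648).

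Atf5, a close relative of ATF4 whose gene ATF4 and CHOP can activate, fell 2.37-fold. It read 7.68, 8.13, 7.62 and 8.09 on Cebpg-/- replicates 1 to 4, against 9.03, 9.14, 9.20 and 9.13 on WT replicates 1 to 4. All Cebpg-/- values lay at least 0.90 below all WT values. The means were 7.88 ± 0.27 and 9.12 ± 0.07 in Cebpg-/- and WT (SD, n = 4), a change of -1.25 ± 0.12 (SE; limma, adjusted p = 0.000343). Within Cebpg-/- the level was lower on replicates 1 and 3, which had the highest leukocyte marker means, than on replicates 2 and 4. The WT levels spanned only 9.03 to 9.20 and followed no single direction. The lowest (9.03) was on WT replicate 1, which had the lowest marker mean (3.60). On WT replicates 3, 2 and 4 the level fell (9.20, 9.14 and 9.13) while the marker mean rose (5.22, 5.28 and 5.36). With that mean as a covariate the change was -1.12 and passed (adjusted p = 0.00623).

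Ddit3 encodes CHOP, a C/EBP family protein that acts late in the response and can favour cell death. Its brightest probe set read 7.08, 6.88, 6.89 and 6.998 on Cebpg-/- replicates 1 to 4, against 7.33, 7.42, 7.44 and 7.21 on WT replicates 1 to 4. The groups did not overlap, with a gap of 0.13 between them. Ddit3 fell to 76.2% of WT, a change of -0.39 ± 0.07 (SE; limma, adjusted p = 0.00866). Its second, dimmer probe set gave 4.19 ± 0.26 in Cebpg-/- and 4.56 ± 0.23 in WT (SD, n = 4), a change of -0.36 that did not pass (adjusted p = 0.158 over all probe sets).

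Nupr1, a small stress-induced chromatin protein, fell on both of its probe sets. The brighter read 8.19, 8.31, 8.33 and 8.32 on Cebpg-/- replicates 1 to 4, against 8.74, 8.84, 8.81 and 9.14 on WT replicates 1 to 4. Every Cebpg-/- value lay at least 0.41 below every WT value. The change was -0.59 ± 0.09 (SE; limma, adjusted p = 0.00336), and that of the other probe set was -0.57 (adjusted p = 0.00395 over all probe sets). That second set carries the suffix x_at, given to sets some of whose probes can match other transcripts too. The brightest sets of Trib3 and Eif4ebp1 and a further set of Atf4 carry this suffix as well.

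Atf3 is a factor that many stresses induce and that can repress stress genes. It read 5.64, 4.76, 5.24 and 5.43 on Cebpg-/- replicates 1 to 4, against 4.59, 4.02, 4.60 and 4.67 on WT replicates 1 to 4. Replicate 2 was lowest in each genotype, and the lowest Cebpg-/- value lay 0.09 above the highest WT value. Atf3 rose by 0.80 ± 0.19 (SE; limma, adjusted p = 0.0255). The call was lost without Cebpg-/- replicate 1 (adjusted p = 0.0717), 3 (0.0616) or 4 (0.0713) or WT replicate 1 (0.0575) or 3 (0.0511). With the leukocyte marker mean as a covariate its change was 0.57 and did not pass (adjusted p = 0.268).

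Of Trib3, a pseudokinase that binds ATF4 and CHOP and the kinase AKT, Cebpg-/- cells had the least relative to WT among the 10 genes. The brightest probe set (1456225_x_at) read 4.96, 5.11, 4.996 and 5.12 on Cebpg-/- replicates 1 to 4, against 6.67, 6.88, 6.61 and 6.56 on WT replicates 1 to 4. The gap between the groups was 1.44, far above the SD of 0.08 in Cebpg-/- and 0.14 in WT. Trib3 fell 3.10-fold, a change of -1.63 ± 0.08 (SE; limma, adjusted p = 6.75e-06), and ranked 12 by the size of the fall among all genes. Its other probe set fell by 1.60 (adjusted p = 1.28e-05 over all probe sets). With the leukocyte covariate the change was -1.59 (adjusted p = 0.000174).

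Eif4ebp1, Ddit4 and Sesn2 are tied to mTORC1, the kinase complex that promotes growth and translation. Eif4ebp1 encodes 4E-BP1, a target of mTORC1 that holds back the cap-binding protein eIF4E when mTORC1 is low. It read 9.77, 9.73, 9.70 and 9.77 on Cebpg-/- replicates 1 to 4, against 10.03, 10.06, 9.87 and 10.14 on WT replicates 1 to 4. The groups were 0.10 apart, and Eif4ebp1 fell by 0.28 ± 0.07 (SE; limma, adjusted p = 0.0212). Its other probe sets fell by 0.33 and 0.26 (adjusted p = 0.00889 and 0.0372 over all probe sets). The call of the brightest was lost without Cebpg-/- replicate 1 (adjusted p = 0.0511) or 3 (0.0635) or WT replicate 1 (0.0604), and with the leukocyte covariate (-0.29, adjusted p = 0.141).

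Ddit4 (REDD1), an mTORC1 inhibitor that hypoxia, glucocorticoids and ATF4 can induce, was higher in Cebpg-/-. It read 8.92, 8.94, 8.87 and 9.11 on Cebpg-/- replicates 1 to 4, against 8.61, 8.82, 8.42 and 8.68 on WT replicates 1 to 4. The groups lay 0.05 apart, less than the SD within either (0.10 and 0.17 in Cebpg-/- and WT). Ddit4 rose by 0.33 ± 0.09 (SE; limma, adjusted p = 0.0393). It did not pass when adjusted over all probe sets (0.0535), after quantile normalization (0.0594) or with the leukocyte covariate (0.33, adjusted p = 0.222). The call was lost without Cebpg-/- replicate 1 (0.0806), 2 (0.0601), 3 (0.0643) or 4 (0.0995) or WT replicate 1 (0.101) or 3 (0.0862).

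Sesn2 encodes sestrin 2, a leucine-sensing inhibitor of mTORC1 that ATF4, p53 and NRF2 can induce. Its brighter probe set read 5.90, 6.12, 5.94 and 6.00 on Cebpg-/- replicates 1 to 4, against 5.81, 5.79, 5.83 and 5.94 on WT replicates 1 to 4. The groups overlapped, and the change of 0.15, with a 95% interval of 0.0044 to 0.30 before adjustment, did not pass (limma, adjusted p = 0.164). The other probe set gave 5.41 ± 0.34 in Cebpg-/- and 5.82 ± 0.53 in WT (SD, n = 4), a change of -0.41 (adjusted p = 0.358 over all probe sets). The probe sets thus differ in sign, and their mean gave -0.13 (adjusted p = 0.620), so no direction is given for this gene.

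Ppp1r15a encodes GADD34, which directs a phosphatase to eIF2 and so ends the response. It read 7.50, 7.08, 7.14 and 7.21 on Cebpg-/- replicates 1 to 4, against 6.87, 6.50, 6.80 and 6.97 on WT replicates 1 to 4. The groups were separated by 0.11, and the gene rose by 0.45 ± 0.12 (SE; limma, adjusted p = 0.0331). This call was lost without Cebpg-/- replicate 1 (adjusted p = 0.0819), 3 (0.0597) or 4 (0.0723) or WT replicate 1 (0.0656), 2 (0.0598) or 3 (0.0732). With the leukocyte covariate the change was 0.36 (adjusted p = 0.275).

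**Figure D2:**
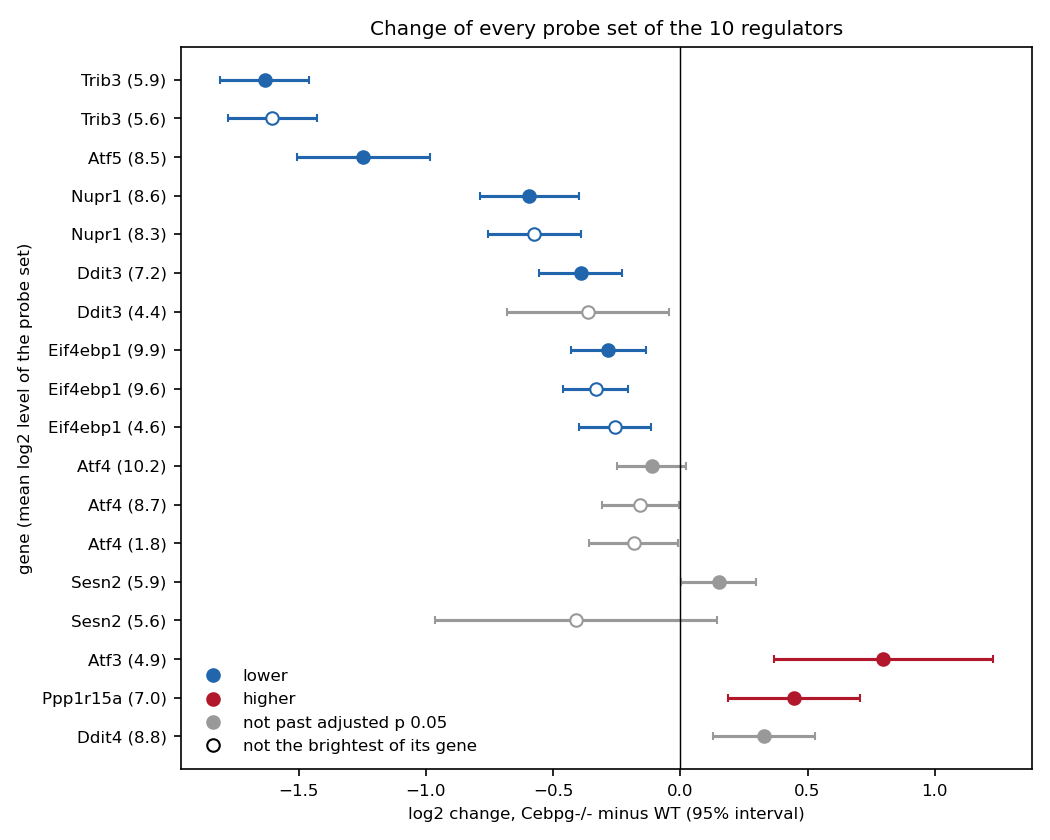
Change in Cebpg-/- relative to WT (log2, points) with its 95% interval (bars) for all 18 probe sets, with the mean level of each in brackets. Colours give calls adjusted over all probe sets, by which 9 were lower, 2 higher and 7 not called, and Ddit4, called over genes, lies just above the threshold.

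At the level of probe sets, 9 of 18 were lower, against 2.78% of all probe sets, and 2 were higher, against 4.82%, so that 11 were called in either direction, against 7.6% (limma, adjusted over 45037 probe sets). Probe sets of 1 gene had the same sign for Atf4, Ddit3, Nupr1, Trib3 and Eif4ebp1, and Sesn2 was the exception among the genes with several. Atf5, Atf3, Ddit4 and Ppp1r15a have 1 probe set each, so no second reading of them exists here.

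The 8 called genes split by how firmly their calls held. Trib3, Atf5, Nupr1 and Ddit3 passed under all 20 alternatives, and their changes ranged from -1.70 to -1.57, -1.33 to -1.12, -0.64 to -0.51 and -0.45 to -0.36. Among the 20, a looser threshold of 0.1 could not remove a call. The exact permutation test, unadjusted, gives p = 0.0286 to any gene whose groups do not overlap, so it could not remove these calls either. All of the 3 higher genes lost their calls without Cebpg-/- replicate 1, 3 or 4 or WT replicate 1 or 3. They also lost them with the leukocyte covariate. The lower call of Eif4ebp1 was lost without Cebpg-/- replicate 1 or 3 or WT replicate 1, and with the covariate. Each of these genes kept its direction in all alternatives run. With the covariate the SE of Ddit4 rose from 0.09 to 0.12 and that of Eif4ebp1 from 0.07 to 0.09. The change of Ddit4 stayed at 0.33 and that of Eif4ebp1 went from -0.28 to -0.29. Those of Atf3 and Ppp1r15a went from 0.80 to 0.57 and from 0.45 to 0.36. Leukocyte marker levels moved with genotype on most arrays, and their part in these changes was not tested beyond that covariate. Atf3 and Ppp1r15a had their lowest Cebpg-/- values (4.76 and 7.08) on replicate 2, the Cebpg-/- array with the lowest marker mean (4.78). Their lowest WT values (4.02 and 6.50) were also on replicate 2, with a marker mean of 5.28. WT replicate 1, with the lowest marker mean (3.60), read 4.59 and 6.87.

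**Figure D3:**
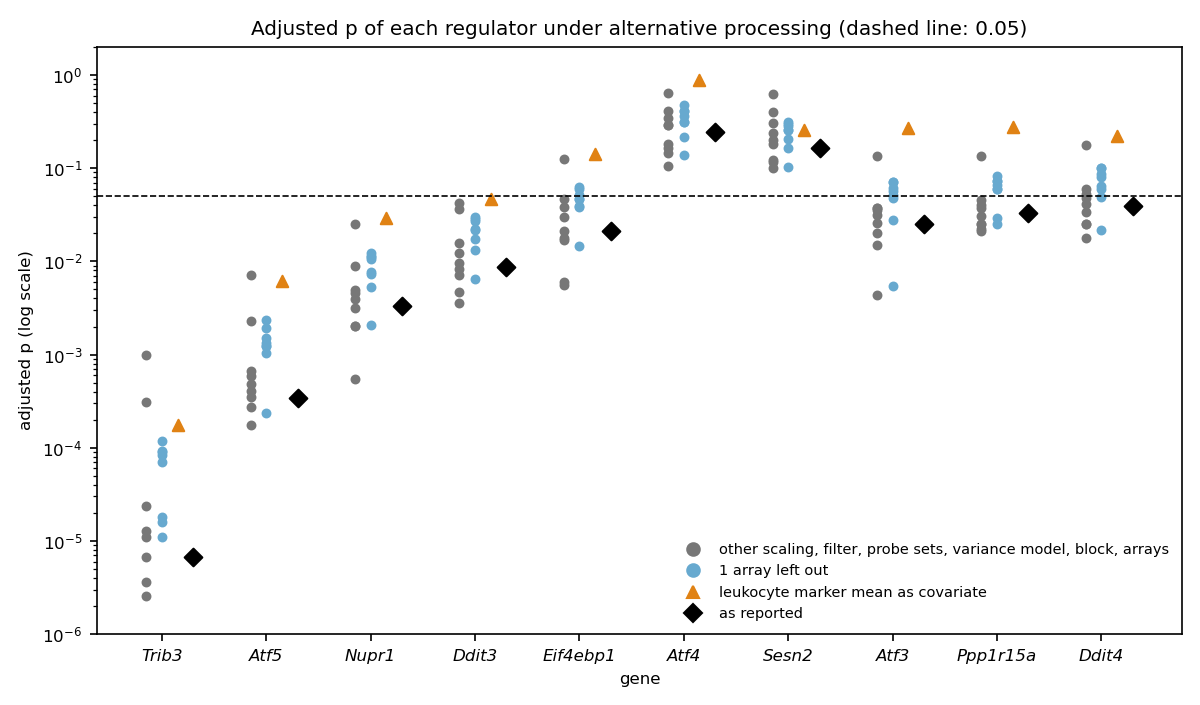
Adjusted p (limma, log axis) of each regulator as reported (black diamonds), with 1 array left out (blue), with the leukocyte marker mean as a covariate (orange triangles) and under the other alternatives (grey). All points of Trib3, Atf5, Nupr1 and Ddit3 lie under the dashed line at 0.05. Those of Atf3, Ppp1r15a, Ddit4 and Eif4ebp1 lie on both sides of it.

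**Figure D4:**
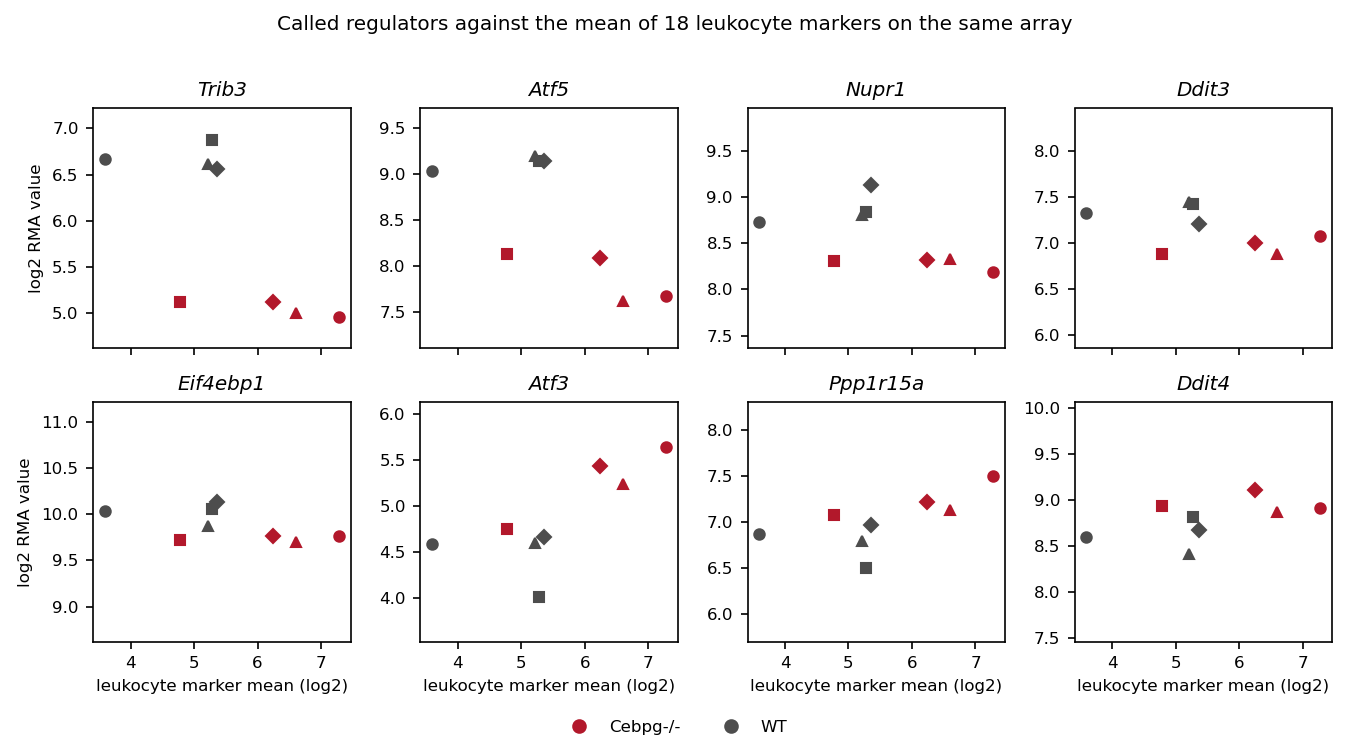
Level of each called regulator (log2, vertical axis) against the mean of 18 leukocyte markers on the same array (log2, horizontal axis), Cebpg-/- in red and WT in grey. Circles, squares, triangles and diamonds are replicates 1 to 4. The Cebpg-/- replicate 2 array has a marker mean within the WT range. It lies below all WT arrays for Trib3, Atf5, Nupr1, Ddit3 and Eif4ebp1, and above them for Atf3, Ppp1r15a and Ddit4.

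The genes whose 8-array profiles lay closest to those of the called regulators were found by the root-mean-square difference of profiles centred on their means, over the 9096 genes above the median level. For Trib3 these were Vldlr, a lipoprotein receptor (difference 0.11 log2 units, change -1.68), and Gpt2, alanine aminotransferase 2 (0.13, -1.41). For Atf5 they were Mthfd2, a mitochondrial folate enzyme (0.10, -1.13), and the ephrin receptor Epha3 (0.12, -1.33). Mthfd2 read 8.08, 8.63, 8.09 and 8.37 on Cebpg-/- replicates 1 to 4, so it too was lower on replicates 1 and 3. For Nupr1 they were Cdc42ep1 and Zbtb18 (0.08 and 0.10), for Ddit3 Cdyl and Derl1 (0.06 and 0.06), and for Eif4ebp1 Myh9 and Ly75 (0.05 and 0.06). For Atf3 they were Nipal1 and Nabp1 (0.08 and 0.13), for Ppp1r15a Tmcc1 and Epha4 (0.06 and 0.07), and for Ddit4 Prelid2 and Zscan22 (0.07 and 0.07). Within the 10 genes Trib3 and Atf5 were each other's nearest (0.25), and so, at a smaller difference, were Atf4 and Eif4ebp1 (0.13). Likeness here is a description over 8 arrays that share the genotype split.

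Effector genes of the response fell widely beside Trib3 and Atf5. Of 38 measured effectors (amino acid transporters and enzymes, tRNA synthetases and others, none of them among the 10), 32 fell and none rose, 6 missed the threshold, and the median was -0.57. Among all genes 3.99% fell. Lowest in p were Slc7a3, a transporter of cationic amino acids (-3.79), Cth, which makes cysteine (-3.24), Vldlr (-1.68) and Gpt2 (-1.41), with limma adjusted p from 4.25e-08 to 1.37e-05. Some other effectors fell further than Vldlr and Gpt2. Averaged over its probe sets, the change of Vldlr was -1.08. The array means of the list ran from 7.35 to 7.56 in Cebpg-/- and from 8.23 to 8.34 in WT. With the leukocyte covariate 21 were still lower. Effectors were partly chosen with these results known, so their count is no independent evidence.

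Genes that act upstream of ATF4 moved both ways. Of 15 measured genes of eIF2 control 4 rose, where 8.62% of all genes did, and 1 fell, where 3.99% did. The other 10 missed the threshold, and the median was 0.03. Those that rose were Impact, an inhibitor of the amino acid sensor GCN2 (0.58), Eif2b3 and Eif2b1, subunits of the exchange factor eIF2B (0.39 and 0.21), and Eif2ak2, the kinase PKR (0.41, named after its value was seen). The kinase PERK, Eif2ak3, fell by 0.30. When averaged over all their probe sets, Impact (0.22, limma adjusted p = 0.0580), Eif2ak2 (0.49, adjusted p = 0.170) and Eif2ak3 (-0.09, adjusted p = 0.255) did not pass. The call of Eif2b1 was lost whichever single array was left out (adjusted p from 0.0504 to 0.0824), and that of Eif2ak2 without Cebpg-/- replicate 1, 3 or 4 or WT replicate 1 or 2 (adjusted p from 0.0829 to 0.133). With the leukocyte covariate Impact alone of these 5 genes passed, and Eif2ak2 stood at 0.20 (adjusted p = 0.446). Without Cebpg-/- replicate 1, 3 or 4 or WT replicate 1 or 2 the higher genes numbered 2, and with the leukocyte covariate 1 was higher and 0 were lower.

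The unfolded protein response of the endoplasmic reticulum, another source of CHOP, leaned lower. Of 15 measured genes 5 fell, where 3.99% of all genes did, and none rose. The other 10 missed the threshold, and the median was -0.19. The lowest p belonged to Xbp1, a transcription factor of that response (-0.53), Manf (-0.29), Herpud1 (-0.40) and the chaperone Hspa5 (-0.22), with limma adjusted p from 0.00505 to 0.0432. The count was 1 without Cebpg-/- replicate 1 or 3, 2 without WT replicate 1 or 3, 3 without Cebpg-/- replicate 2 or WT replicate 2, and 0 with the leukocyte covariate. Of these 4 genes only Xbp1 passed in each fit that left out 1 array, and with the covariate it too missed the threshold (-0.36, limma adjusted p = 0.0559).

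Among genes that CHOP is known to control or that act with it in cell death, 2 of 6 rose, where 8.62% of all genes did. They were Tnfrsf10b, a death receptor (0.68), and Bcl2l11 (BIM, 0.54). The Bcl2l11 call was lost without any 1 array except WT replicate 4 (limma, adjusted p from 0.0518 to 0.121), and neither passed with the leukocyte covariate (adjusted p = 0.0516 for Tnfrsf10b and 0.310 for Bcl2l11). Of 15 other measured genes of mTORC1 control 1 rose, the sestrin Sesn1 (0.35), where 8.62% of all genes did. The other 14 missed the threshold (median 0.06). Sesn1 did not pass without Cebpg-/- replicate 1, 3 or 4 or WT replicate 1, 2 or 3 (adjusted p from 0.0588 to 0.112), nor averaged over its probe sets (0.23, adjusted p = 0.134). With the leukocyte covariate it stood at 0.15 (adjusted p = 0.396). None of 4 measured C/EBP genes, possible dimer partners of these factors, passed by limma, with Cebpa at 0.32 (adjusted p = 0.161) and Cebpd at 0.28 (0.183). Cebpg itself is 1 of these 4, represented by its brightest probe set (-0.17, limma adjusted p = 0.232). Another Cebpg probe set fell by 0.78, as given above, so the count does not mean that Cebpg was unchanged.

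**Figure D5:**
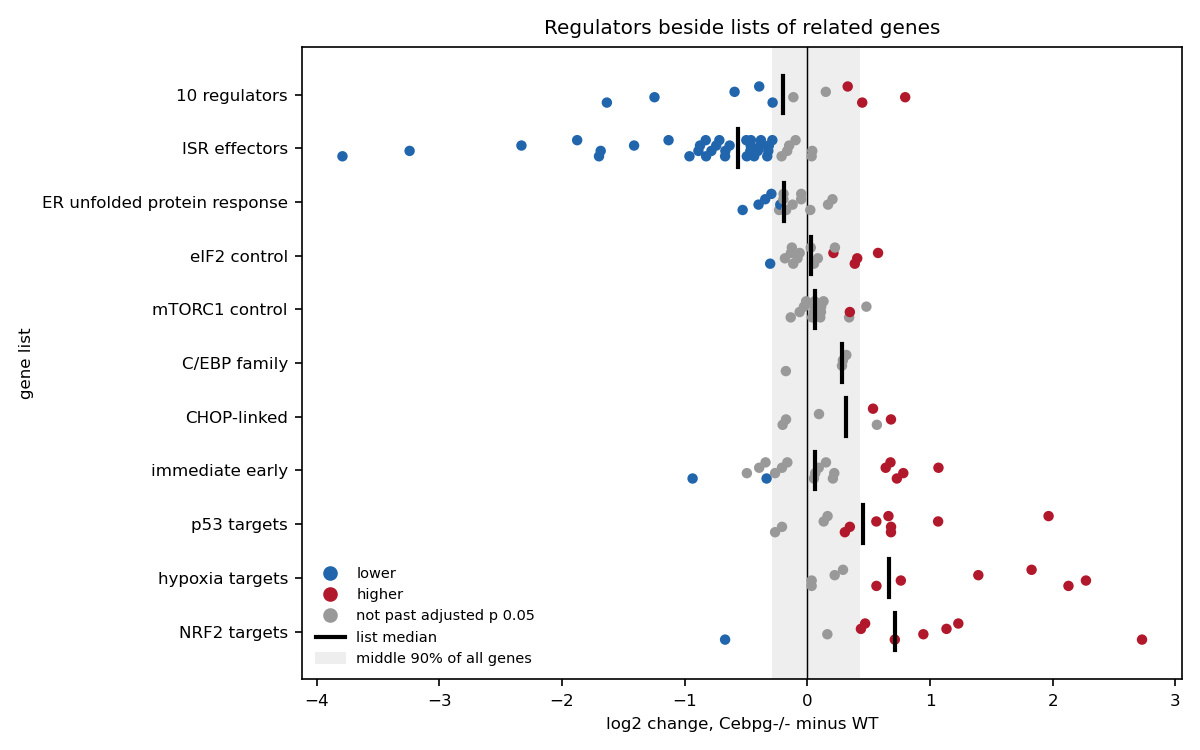
Change in Cebpg-/- relative to WT (log2) of each gene in the 10 regulators and in 10 lists of related genes, coloured by call over genes, with list medians (black bars) and the middle 90% of all genes (grey band, -0.28 to 0.42). Effectors lie to the left, targets of p53, hypoxia and NRF2 to the right, and the regulators on both sides.

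Atf3, Ppp1r15a, Ddit4 and Sesn2 are also known to respond to signals other than ATF4, and lists for such signals were described beside them. Of 19 immediate early genes 5 rose, 2 fell and 12 did not pass. For this and the following lists, the shares over all genes were 8.62% higher and 3.99% lower. Fosl1 (1.07), Ier3 (0.78) and Klf2 (0.68) were among the higher, and the lower were Egr1 (-0.94) and Ier2 (-0.33, named after its value was seen). Of 12 measured p53 targets 8 rose and none fell, with Mdm2 at 1.07, Trp53inp1 at 0.68, Polk at 0.66 and Perp at 1.97, and of 10 hypoxia targets 6 rose and none fell, with Egln3 at 2.13, Adm at 1.83, Bnip3 at 1.39 and Ankrd37 at 2.27. Of 9 measured NRF2 targets 7 rose, with Hmox1 at 2.73, Gclm at 1.13, Srxn1 at 0.95 and Txnrd1 at 0.71. Among the 9, 1 fell (Slc7a11, -0.67, named after its value was seen). Some lists share genes: Slc7a11 also counts among the lower effectors. Tnfrsf10b and Sesn1, given above in other lists, count again among the 8 higher p53 targets. Averaged over their probe sets, Txnrd1 did not pass (0.45, limma adjusted p = 0.0696) and Trp53inp1 stood at 0.36. With the leukocyte covariate 3 immediate early genes and 4 p53 targets were higher, Slc7a11 missed the threshold (limma, adjusted p = 0.0798) and 1 immediate early gene was lower. Whether these signals bear on the higher regulators was not tested. These lists too were chosen with earlier results of these data known, so their counts are no independent evidence.

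The composite core stood in promoters of regulators that moved in opposite directions: Trib3 and Nupr1 were lower and Atf3 was higher in Cebpg-/-. Across measured genes with a promoter window, 35 of 557 lower genes held TGATGNAA (6.28%), as did 26 of 1286 higher genes (2.02%) and 407 of 12609 genes not called (3.23%). These shares describe letters in the windows and are no evidence of binding.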

How the data were processed

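The submitters' processing notes name RMA as the source of the deposited log2 values. The RMA version is not given in the sources used here. The method models background, equalises the arrays and combines each set's probes, and changes of dim sets come out too small. Per the labels' protocols, 1 µg of RNA per sample went into biotin-labelled cRNA. Of 45101 probe sets 64 controls were left out, and 34945 named 1 gene by the platform's annotation, 932 several and 9160 none. Symbols followed RefSeq (GRCm38.p6) by Entrez number.

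All 45037 probe sets were fitted in R 4.3.3 by limma 3.58.1 (lmFit, then eBayes, with genotype as the one term). Each gene is represented by its probe set with the highest mean, with Benjamini-Hochberg adjustment over 18193 genes, and further probe sets of a gene were adjusted over all probe sets. The fit was tested on simulated data. The members and lists were chosen with earlier results of these data known. The genes named are the 10 members, Cebpg, for each list its called genes of lowest p (up to 4, or 2 uncalled ones) and 2 nearest genes per called member. Other scalings, filters, variance models, the replicate number as a block, a leukocyte marker covariate and each array left out were tried. A threshold of 0.1 and, for the members, an unadjusted exact permutation test were also run. Leaving out both arrays with extreme leukocyte means was added after seeing the data. The sources used here name no batch.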

Additional observations from a re-analysis of the deposited data

Results flagged for a closer look

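Of 68 sets of 4 values examined, 5 held a value far from the other 3, where chance gives about 1 in 20. Atf3 read 4.02 on WT replicate 2, against 4.59 to 4.67 on the other WT arrays, and without that array its change was 0.65. Nupr1 on its brighter probe set read 8.19 on Cebpg-/- replicate 1, against 8.31 to 8.33 on the other Cebpg-/- arrays, and on its second probe set 8.79 on WT replicate 4, against 8.47 to 8.50 on the other WT arrays. The mean of the NRF2 targets was 6.86 on Cebpg-/- replicate 2, against 7.16 to 7.19 on the other Cebpg-/- arrays. The leukocyte marker mean was 3.60 on WT replicate 1, against 5.22 to 5.36 on the other WT arrays.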

How the results depend on the processing

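Trib3, Atf5, Nupr1 and Ddit3 kept their call under all 20 alternatives run, and Atf4 was called under none. The threshold of 0.1 and the unadjusted exact permutation test, both among the 20, could not remove calls of genes without overlap. Under the leukocyte covariate Atf3 (0.57), Ddit4 (0.33), Eif4ebp1 (-0.29) and Ppp1r15a (0.36) did not pass, nor did they without both arrays of extreme leukocyte means (0.71, 0.34, -0.29 and 0.39). Ddit4 also missed the threshold after quantile normalization (0.31) and when adjusted over probe sets (0.33). Sesn2 turned to -0.13 with the mean of its probe sets. Leaving out 1 array gave 0.65 to 0.97 for Atf3, 0.26 to 0.39 for Ddit4, -0.33 to -0.25 for Eif4ebp1 and 0.35 to 0.51 for Ppp1r15a. Members called higher numbered 0 with the covariate, 0 without both extreme arrays and 0 to 3 without 1 array. Genes called higher, 1569 as reported, numbered 270, 347 and 780 to 1690 under these same settings, and genes called lower, 726 as reported, numbered 130, 182 and 395 to 969. The lowest of these were without Cebpg-/- replicate 1 (810 higher, 395 lower) and WT replicate 1 (780 and 422). Effectors called lower, 32 as reported, were 21 with the covariate. The cause was not tested, though fits on fewer arrays have less power, and the SE of each member was larger in the covariate fit. Of the calls 68.4% were higher, against 56.7% after quantile normalization and 78.9% with array medians subtracted, which shifted the median gene by 0.03. With the replicate number as a block 978 genes were higher and 491 lower and no member's call changed, but same-numbered arrays did not deviate together (correlation of residuals -0.27 to 0.13), so the numbers were not taken as pairs. Of 648 further comparisons for genes named from the lists 82 lost a call and none reversed. Dim probe sets, such as the third of Atf4, limit what can be read.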
